A study of Mus musculus with 18 samples.

Results

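Genes whose midbrain level lay above or below both other brain regions were sought in mRNA of mice at postnatal day 25 (P25). Poly(A) RNA of dissected forebrain, midbrain and hindbrain was sequenced from 3 *Fmr1*CRE mice and 3 wild-type littermates. *Fmr1*CRE mice carry a single-base change in a conserved regulatory element of *Fmr1*, placed in the mouse X chromosome by genome editing on a C57BL/6 background. No transgene, Cre or treatment was used, and the wild-type mice are the controls. Each mouse gave 1 library of each region, so the 6 midbrain libraries of the 18 were set against the 6 forebrain and the 6 hindbrain libraries of the same mice. Of 19313 genes tested, 542 lay above both other regions and 370 lay below both.

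A gene was called when 3 tests each had an adjusted p under 0.05 and the same sign: midbrain against the equal-weight mean of forebrain and hindbrain (the midbrain contrast), midbrain against forebrain, and midbrain against hindbrain. The mouse was a block in the model, which absorbs genotype. Both pairwise tests share the 6 midbrain libraries and are not independent of each other. The smaller of the pairwise differences is called the margin here. Levels are in CPM, the count of a gene scaled to the TMM-adjusted total of its library, and differences are on the log2 scale. Levels in CPM are not adjusted for transcript length and are compared here only within a gene.

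The midbrain of the mouse holds the dopamine neurons of the substantia nigra and ventral tegmental area below, and the superior and inferior colliculi, together the tectum, above. Dopamine neurons make their transmitter from tyrosine with tyrosine hydroxylase, pack it into vesicles with a monoamine transporter and take it back up with the dopamine transporter. They are born from floor plate progenitors under *Foxa1*, *Foxa2*, *Lmx1a*, *Lmx1b*, *En1* and *Nr4a2*, while *Gata3* and *Tal1* direct GABA neurons of the midbrain and *Pax7* marks tectal cells. The choroid plexus, which secretes cerebrospinal fluid, sits in the ventricles of the forebrain and hindbrain and not in the narrow aqueduct of the midbrain.

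The gene counts of a library summed to 22455512 at the lowest and 28061185 at the highest. The marker genes matched the labelled regions in part. A list of midbrain markers had a mean log2 CPM of 1.79 to 2.73 in midbrain libraries, against -2.28 to -0.54 in forebrain and -0.56 to 0.45 in hindbrain. Of its 8 genes tested, 7, all but *Otx2*, were also called above both regions, and the list was chosen with earlier results of these data known. The midbrain libraries also held telencephalic transcripts. *Tbr1*, a transcription factor of cortical neurons, was at 23.6 to 56.7 CPM in midbrain, 53.7 to 81.2 CPM in forebrain and 0.166 to 0.834 CPM in hindbrain. Over a list of forebrain markers, the mean log2 CPM was 4.13 to 4.85 in midbrain libraries, 5.02 to 5.52 in forebrain and -0.39 to 0.49 in hindbrain. Hindbrain markers were also present in midbrain, with a mean log2 CPM of 0.36 to 1.72. Their mean was -3.01 to -1.76 in forebrain and 4.02 to 4.27 in hindbrain. Of the 12 hindbrain markers tested, 1, *Barhl1*, was called above both regions. Genes whose midbrain level lay between both regions in this way were not called. What such transcripts do to the levels and margins of called genes was not tested. Both forebrain libraries labelled replicate 3 went against the other regions of their mice in *Fos*, an activity-induced transcription factor. Its level was 24.98 CPM in the wild-type forebrain library of that number and 4.72 and 4.91 CPM in hindbrain and midbrain, but 3.86 CPM in the *Fmr1*CRE forebrain library and 21.2 and 33.5 CPM in hindbrain and midbrain. Without these forebrain libraries 590 genes lay above both regions and 233 below. With the pair exchanged the counts were 580 and 411.

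The genes above both regions were 2.81% of those tested and those below both were 1.92%. The counts depended on single mice: without wild-type replicate 1 they were 275 above and 206 below, without wild-type replicate 2 they were 325 and 158, and without *Fmr1*CRE replicate 1 they were 343 and 242. Without *Fmr1*CRE replicate 3, 243 lay below. The contrast alone passed for many more, 3287 genes higher (17%) and 2140 lower (11.1%), and of these 1021 and 336 had a midbrain level between the other regions and are not described. A further 1724 and 1434 lay on one side of both regions in level but missed a pairwise test. Most margins were small, with a median of 0.46 above and -0.34 below. The margin was at least 1, a doubling, for 50 genes above and 26 below, and at least 2 for 13 genes above. All 6 midbrain libraries were higher than all 12 others for 191 of the 542 genes, and lower than all others for 133 of the 370. Over all genes tested such separation was found for 1.09% upward and 0.849% downward. Midbrain was the highest region in 6 of 6 mice for 387 of the 542 genes and the lowest for 263 of the 370, where 3.03% and 2.44% of all genes tested were. The split between directions depended on scaling: with total counts in place of TMM, 819 genes lay above both regions and 194 below.

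**Figure D1:**
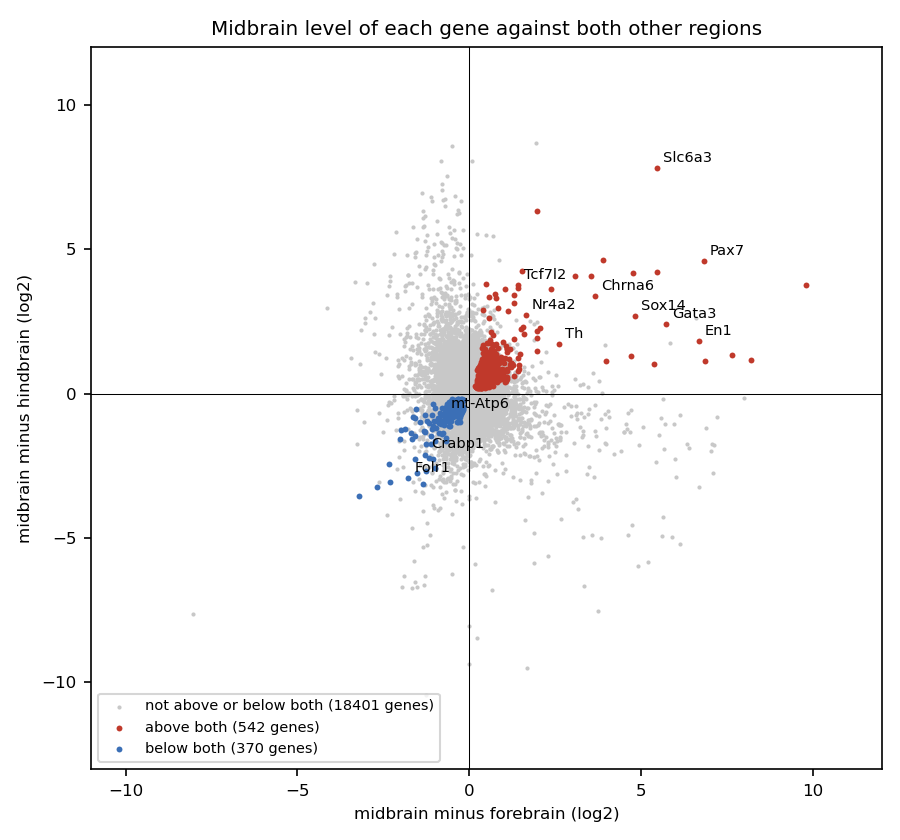
Each point is 1 of the 19313 genes tested, with midbrain minus forebrain on the x axis and midbrain minus hindbrain on the y axis, both log2 differences. The 542 red genes lie above both regions and reach 5.45 and 7.80 for *Slc6a3*. The 370 blue genes lie below both and mostly sit close to 0.

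Sequences upstream of a few genes above both regions are shown because they hold the letters of motifs named for factors that also lay above both, the FOX and GATA families, or that are known in midbrain development, the OTX family. They come from RefSeq promoters of GRCm38.p6 (250 bases before to 50 after a start), read 5′ to 3′ on the gene's strand, with the motif in capitals and up to 30 bases on each side. The FOX letters TGTTTAC lie on the opposite strand in *Foxa1* (chr12:57546216-57546282, minus strand). The GATA letters AGATAA lie on the gene's strand in *Foxa2* (chr2:148045612-148045677, minus strand) and on the opposite strand in *Tal1* (chr4:115056191-115056256, plus strand) and *Slc18a2* (chr19:59260628-59260683, plus strand). The OTX letters TAATCC lie on the opposite strand in *Tcf7l2* (chr19:55895225-55895290, plus strand), before a start inside the gene's annotated span, and the promoters of this gene also hold 1 match to AGATAA, not shown. Each window lies before the start of its own promoter.
Foxa1: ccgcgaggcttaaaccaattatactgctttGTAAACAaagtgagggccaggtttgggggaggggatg
Foxa2: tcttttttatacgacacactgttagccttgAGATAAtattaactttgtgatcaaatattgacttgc
Tal1: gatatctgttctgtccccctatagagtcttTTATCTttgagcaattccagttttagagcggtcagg
Slc18a2: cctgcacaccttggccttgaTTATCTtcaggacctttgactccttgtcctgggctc
Tcf7l2: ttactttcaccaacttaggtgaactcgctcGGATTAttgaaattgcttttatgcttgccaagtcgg

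The promoters holding these letters were counted among the genes above both regions and among all genes tested. RefSeq promoters were found for 416 of 540 gene symbols above both, 521 promoters in all, and for 13087 of 19295 symbols tested, 16685 promoters. Searched on both strands, AGATAA was in 7.49% of promoters of genes above both and 7.26% of all. TAATCC was in 4.8% and 5.94%, AAGGTCA (a site of NR4A factors) in 3.26% and 3.47%, and TGTTTAC in 1.73% and 2.7%. None of these letters was in the windows of *Slc6a3*, *Th*, *Pax7*, *En1*, *Nr4a2* and *Gata3*.

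Genes of dopamine neurons were the gene list with the most members above both regions. Of 22 listed genes tested, 10 lay above both regions (*Th*, *Slc6a3*, *Slc18a2*, *Nr4a2*, *Chrna6*, *Chrnb3*, *Foxa1*, *Foxa2*, *Gucy2c* and *En1*) and 0 below, with a median contrast of 1.55 beside -0.01 over all genes tested. *Slc6a3* (chr13:73536747-73578672, plus strand, GRCm38), the dopamine transporter, was at 20.5, 27.4 and 45.1 CPM (lowest, median and highest of 6 libraries) in midbrain, 0.0397, 0.338 and 8.32 CPM in forebrain, and 0.0714, 0.179 and 0.288 CPM in hindbrain. No midbrain library overlapped another region, but 1 forebrain library, *Fmr1*CRE replicate 3, stood at 8.32 CPM while the other 5 were at or below 0.44 CPM. The contrast of *Slc6a3* was 6.62 (SE 0.57, adjusted p = 5.89e-06), and 7.199 without the forebrain libraries of replicate 3. More dopamine neurons in a piece of tissue and more RNA in each neuron cannot be told apart in these bulk libraries, here and for every gene below.

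*Th*, tyrosine hydroxylase, was at 17.8, 23.7 and 36.5 CPM in midbrain, 0.914, 3.81 and 8.32 CPM in forebrain, and 4.74, 6.12 and 15.5 CPM in hindbrain. Every midbrain library was above every other, with a contrast of 2.16 (SE 0.31, adjusted p = 0.000335). Other catecholamine neurons are known in both hindbrain and forebrain. *Slc18a2*, which loads monoamines into vesicles, was at 17.7 to 42.1 CPM in midbrain, 0.676 to 5.602 CPM in forebrain and 9.88 to 31.3 CPM in hindbrain, so midbrain and hindbrain overlapped. Its difference from hindbrain was 1.11 (adjusted p = 0.0285), with midbrain the highest region in 5 of 6 mice. This call was lost without wild-type replicate 1, 2 or 3, or *Fmr1*CRE replicate 1, in which settings the contrast itself was 2.32 to 2.54.

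*Nr4a2* (Nurr1), a nuclear receptor that keeps dopamine neurons in their identity, was at 51.0, 65.4 and 80.8 CPM in midbrain, 10.9, 20.6 and 35.6 CPM in forebrain and 4.78, 8.11 and 20.9 CPM in hindbrain. The regions did not overlap, and the contrast was 2.17 (SE 0.31, adjusted p = 0.000284). *Nr4a2* is also expressed in deep cortical layers. *En1*, an engrailed homeobox gene of the midbrain and anterior hindbrain, was at 3.66 to 9.01 CPM in midbrain, 1.31 to 2.96 CPM in hindbrain and 0 to 0.212 CPM in forebrain. Its margin, against hindbrain, was 1.83 (adjusted p = 0.000972).

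Both floor plate factors had low counts. *Foxa1* was at 0.648 to 2.08 CPM in midbrain and at most 0.212 CPM elsewhere, and *Foxa2* was at 0.489 to 1.28 CPM and at most 0.127 CPM. Neither overlapped another region. The nicotinic receptor subunit *Chrna6*, which dopamine terminals use, was at 3.93, 5.72 and 8.17 CPM in midbrain, 0.124, 0.316 and 1.99 CPM in forebrain and 0.238, 0.582 and 1.01 CPM in hindbrain, a contrast of 3.51 (SE 0.41, adjusted p = 6.87e-05). Its partner *Chrnb3* was at 2.00 to 5.85 CPM in midbrain and overlapped forebrain, at 0.701 to 2.29 CPM. *Gucy2c*, a guanylate cyclase receptor of dopamine neurons, was at 0.648 to 1.78 CPM in midbrain and overlapped forebrain, at 0.0881 to 0.721 CPM, with a contrast of 2.07 (SE 0.34, adjusted p = 0.000708).

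The other 12 dopamine genes tested did not lie above both regions. *Ddc*, which completes dopamine synthesis and also serotonin synthesis, was at 26.6 to 49.4 CPM in midbrain and 16.8 to 32.5 CPM in hindbrain, a difference of 0.58 (adjusted p = 0.0912). *Gch1* and *Ret* differed from hindbrain by 0.18 and -0.03 (adjusted p = 0.481 and 0.923). *En2* was lower in midbrain than in hindbrain by 0.82 (adjusted p = 0.0233), and *Aldh1a1* and *Sncg* were also lower than in hindbrain, with differences of -1.24 and -2.15 (adjusted p = 1.03e-07 and 6.33e-08). *Drd2*, the D2 dopamine receptor, was lower in midbrain than in forebrain, where striatal neurons express it, with a difference of -1.37 (adjusted p = 0.000104). *Pitx3* did not pass the filter on low counts, with at most 31 reads in a library.

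**Figure D2:**
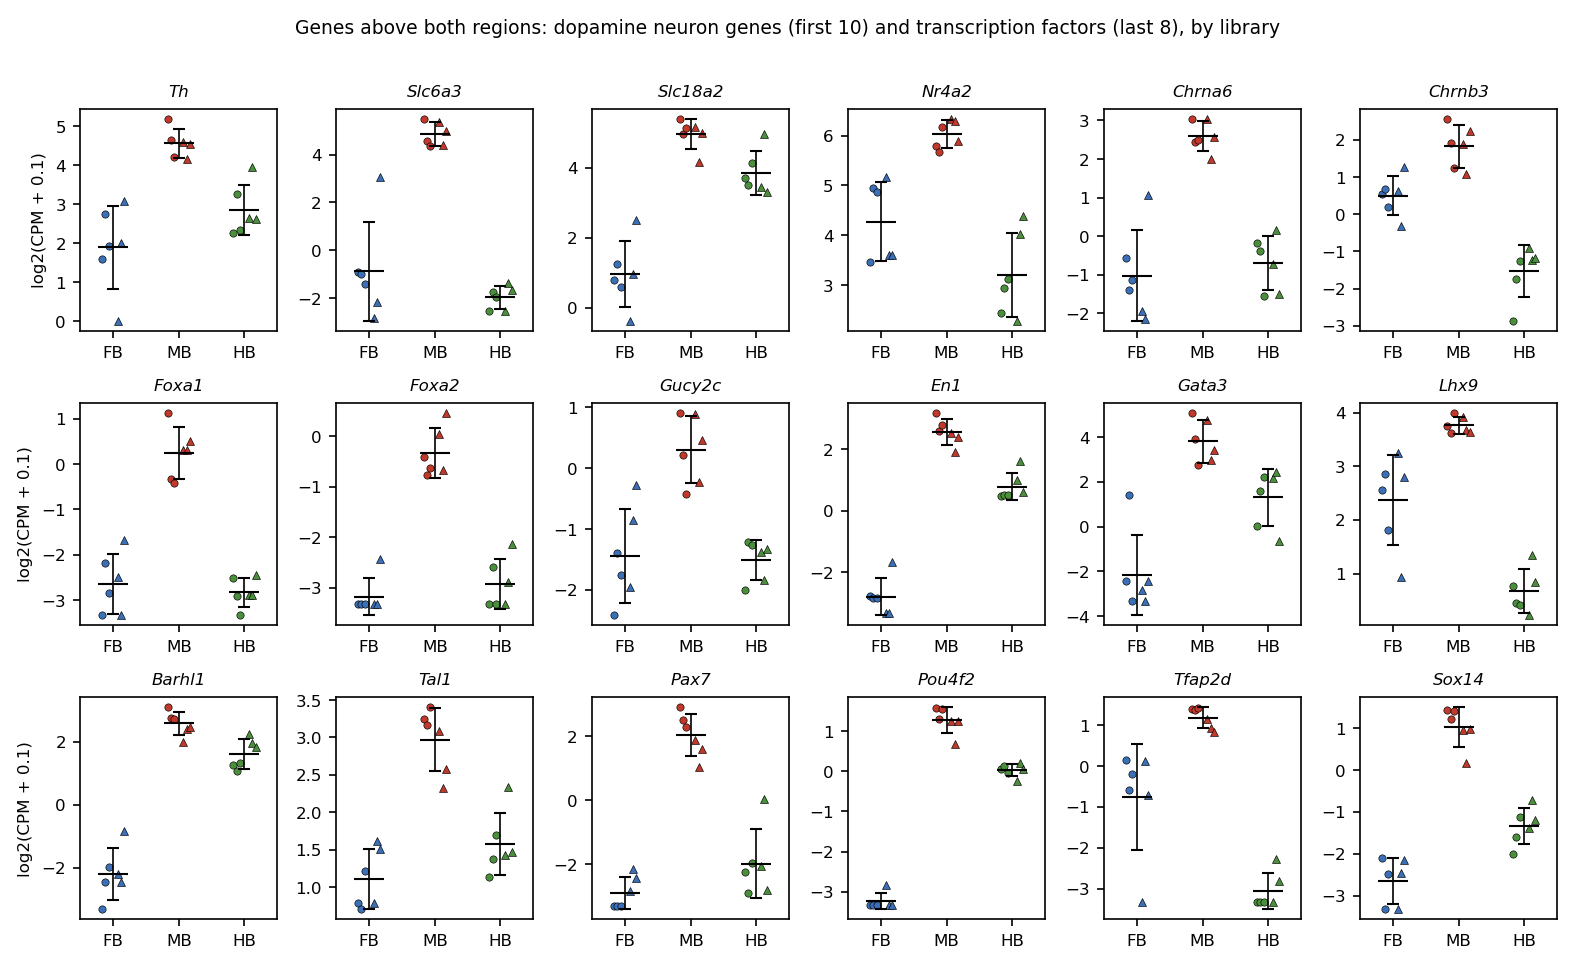
The level of 10 dopamine neuron genes and 8 transcription factor genes in each library, as log2(CPM + 0.1), in forebrain (FB), midbrain (MB) and hindbrain (HB). Circles are wild-type and triangles *Fmr1*CRE libraries, and the black marks are the mean and SD of 6 libraries. Midbrain is highest in all 18 panels, with *Slc18a2* and *Barhl1* close to hindbrain and *Chrnb3* close to forebrain.

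Transcription factors of the midbrain and tectum followed. Of 20 listed factors tested, 8 lay above both regions (*Gata3*, *Lhx9*, *Barhl1*, *Tal1*, *Pax7*, *Pou4f2*, *Tfap2d* and *Sox14*), 0 lay below, and the median contrast was 1.94. *Pax7* (chr4:139737062-139833528, minus strand), a paired box factor of the superior colliculus, was at 1.96, 4.18 and 7.40 CPM in midbrain, 0, 0.0199 and 0.124 CPM in forebrain and 0.0332, 0.127 and 0.938 CPM in hindbrain. The nearest library of another region, at 0.938 CPM, was *Fmr1*CRE hindbrain replicate 2, and the contrast was 5.71 (SE 0.56, adjusted p = 1.53e-05).

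*Gata3*, a zinc finger factor of GABA neurons, was at 6.59, 12.8 and 33.6 CPM in midbrain, 0.551, 3.64 and 5.37 CPM in hindbrain and 0, 0.0623 and 2.53 CPM in forebrain. The libraries did not overlap, but the spread was wide, and its difference from hindbrain of 2.41 had an adjusted p of 0.0226. Its call was lost without wild-type replicate 1 or *Fmr1*CRE replicate 1 or 3, with contrasts of 3.54 to 3.81. *Tal1*, which acts with GATA factors, was at 4.91 to 10.5 CPM in midbrain against 2.09 to 4.94 CPM in hindbrain and 1.53 to 2.97 CPM in forebrain, a contrast of 1.71 (SE 0.21, adjusted p = 8.62e-05). *Sox14*, a factor of GABA neurons in the pretectum and thalamus, was at 1.02 to 2.60 CPM in midbrain and at most 0.505 CPM elsewhere.

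*Lhx9*, a LIM homeobox factor, was at 12.2, 13.0 and 15.9 CPM in midbrain, 1.81, 6.32 and 9.42 CPM in forebrain and 1.07, 1.43 and 2.45 CPM in hindbrain, a contrast of 2.21 (SE 0.26, adjusted p = 6.60e-05). *Tfap2d*, an AP-2 factor of the tectum, had its nearest neighbour in forebrain, at up to 1.01 CPM against 1.68 to 2.59 CPM in midbrain, and its call was lost without wild-type replicate 2 (contrast 4.003) or the forebrain libraries of replicate 3 (contrast 4.23). *Pou4f2* and *Barhl1* had theirs in hindbrain, with differences of 1.33 and 1.02 (adjusted p = 0.000576 and 0.0288). *Barhl1* is also on the list of hindbrain markers. The other 12 factors tested were not called, and some were higher in hindbrain. *Tfap2b* was lower in midbrain than in hindbrain by 0.57 (adjusted p = 0.013), *Pax3* by 1.17 (adjusted p = 0.00378), and *Otx2* by 0.59 (adjusted p = 0.0359). *Otx2* is also on the list of choroid plexus genes, and which cells its counts came from was not tested.

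Serotonin neurons of the raphe straddle the border of midbrain and hindbrain, and 3 of 7 of their genes tested lay above both regions. *Slc6a4*, the serotonin transporter, was at 6.31, 15.99 and 18.3 CPM in midbrain, 3.48, 6.15 and 10.4 CPM in hindbrain and at most 0.132 CPM in forebrain. Midbrain was the highest region in 5 of 6 mice, and the difference from hindbrain was 1.16 (adjusted p = 0.00892). The low midbrain library was *Fmr1*CRE replicate 2, at 6.31 CPM, and the other 5 were at or above 14.6 CPM. *Fev*, a factor of serotonin neurons, was low in the same library, at 0.189 CPM against 1.20 to 2.89 CPM in the others. *Htr1a*, the inhibitory receptor these neurons carry, was at 18.9 to 24.9 CPM in midbrain, 9.94 to 18.2 CPM in forebrain and 8.52 to 11.9 CPM in hindbrain, without overlap. *Tph2*, which makes serotonin, was 0.71 above hindbrain (adjusted p = 0.0696).

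Genes known from the thalamus, which lies just before the midbrain, were in part highest in the midbrain libraries. Of 21 thalamic genes tested, 3 lay above both regions and 1, *Nexn*, below. *Tcf7l2*, a Wnt effector of thalamus, habenula and tectum, was at 46.6, 61.4 and 88.9 CPM in midbrain, 10.4, 23.3 and 37.9 CPM in forebrain and 3.69, 4.16 and 7.43 CPM in hindbrain, a contrast of 2.58 (SE 0.23, adjusted p = 7.64e-06). The libraries did not overlap. *Ntng1*, a netrin-like adhesion protein of thalamic axons, was at 40.2 to 68.9 CPM in midbrain and overlapped forebrain, at 16.2 to 50.5 CPM. The thalamic markers *Gbx2*, *Prkcd* and *Rora* had contrasts of -0.30, 0.31 and -0.01 (adjusted p = 0.50, 0.0774 and 0.947). Of 12 habenular genes 1 lay above both (*Spon1*) and 1 below (*Gng8*), and of 22 hypothalamic genes 2 lay above, among them *Cartpt*, and 1 below (*Crh*). With the trend of counts on transcript length taken out of each library, a setting described further on, both habenular calls were lost (contrasts of 0.36 for *Spon1* and -0.60 for *Gng8*) and 2 of 21 thalamic genes lay above.

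Of 20 neuropeptides, 5 lay above both regions (*Cartpt*, *Grp*, *Ucn*, *Pnoc* and *Cbln4*) and 2 below (*Penk* and *Crh*). *Ucn*, urocortin of the Edinger-Westphal nucleus, was at 0.641 to 1.16 CPM in midbrain and at most 0.234 CPM elsewhere. *Cartpt*, a feeding peptide made in the same nucleus and in the hypothalamus, was at 18.0 to 24.8 CPM in midbrain, 5.88 to 13.3 CPM in forebrain and 5.63 to 9.70 CPM in hindbrain, without overlap. *Ucn* was the only called gene of 12 oculomotor and cholinergic genes tested.

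Among abundant genes with a margin of at least 1, the cell surface protein *Tenm2* (chr11:36006656-37235964, minus strand), a teneurin of synapse formation, was at 87.4, 99.1 and 159 CPM in midbrain, 41.7, 51.1 and 59.0 CPM in forebrain and 11.9, 15.8 and 17.7 CPM in hindbrain. The contrast was 1.99 (SE 0.13, adjusted p = 8.18e-07). *Tenm1* (chrX:42527866-43429126, minus strand), with a margin under 1, was at 62.6 to 91.3 CPM in midbrain and at most 59.9 CPM elsewhere, a contrast of 0.72 (SE 0.13, adjusted p = 0.00109), but with the length trend removed its call was lost (contrast 0.39). *Gpr161*, a receptor of primary cilia that restrains Hedgehog signalling, was at 23.4 to 36.6 CPM in midbrain, 10.2 to 14.8 CPM in forebrain and 6.77 to 9.41 CPM in hindbrain, a contrast of 1.60 (SE 0.11, adjusted p = 8.18e-07). *Disp2* of the Dispatched family was at 340 to 731 CPM in midbrain and at most 316 CPM elsewhere. *Fibcd1*, *Tox2*, *Nr2f2* and *Dgkg* had contrasts of 2.34, 1.31, 1.26 and 1.13, all without overlap of libraries. The call of *Tox2* was lost without wild-type replicate 2, with a contrast of 1.23.

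Lists of cholinergic receptors, glutamate neuron genes and fast inhibition genes had members above both regions and 0 below. Of 17 nicotinic and muscarinic receptor genes, a family chosen after values were seen, 6 were above both. *Chrna6* and *Chrnb3* among these are also on the dopamine list. *Chrna4*, which with *Chrnb2* forms the main brain nicotinic receptor, was at 42.5 to 79.2 CPM in midbrain, 21.1 to 39.1 CPM in forebrain and 10.4 to 21.7 CPM in hindbrain, and *Chrnb2* at 61.8 to 85.9 CPM in midbrain and at most 56.1 CPM elsewhere. *Chrm5*, the muscarinic receptor of dopamine neurons, was at 1.54 to 2.47 CPM in midbrain and at most 1.15 CPM elsewhere. Of 26 glutamate neuron transporters and receptors 7 were above both, with a median contrast of 0.59. *Gria1*, an AMPA receptor subunit, was at 408 to 504 CPM in midbrain and at most 383 CPM elsewhere. Of 23 genes of fast inhibition 4 were above both, among them *Glra3* and *Gad1*. *Gad1*, which makes GABA, was at 297 to 387 CPM in midbrain, 140 to 265 CPM in forebrain and 202 to 270 CPM in hindbrain, a contrast of 0.58 (SE 0.11, adjusted p = 0.00187). With the length trend removed *Gria1* and *Glra3* lost their calls (contrasts of 0.45 and 0.69) and *Gad1* kept its call, with 3 of 26 glutamate and 2 of 23 inhibition genes above both and again 6 of 17 cholinergic receptor genes.

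Genes below both regions were led by the choroid plexus. Of its 14 listed genes tested, 6 lay below both regions (*Folr1*, *Aqp1*, *Kcne2*, *Tmem72*, *Ttr* and *Slc4a5*), 0 above, and the median contrast was -1.32. *Folr1* (chr7:101858331-101870788, minus strand), the folate receptor of this epithelium, was at 0.563, 1.42 and 2.08 CPM in midbrain, 3.34, 4.12 and 7.43 CPM in forebrain and 6.42, 9.66 and 15.6 CPM in hindbrain. The regions did not overlap, and the contrast was -2.36 (SE 0.33, adjusted p = 0.000257). *Ttr*, transthyretin, which carries thyroid hormone in cerebrospinal fluid, was at 152, 248 and 451 CPM in midbrain, 346, 647 and 847 CPM in forebrain and 865, 1346 and 3171 CPM in hindbrain. Midbrain was lowest in 5 of 6 mice, and the contrast of *Ttr* was -1.98 (SE 0.35, adjusted p = 0.00111). Its call was lost without wild-type replicate 1 or 2 or *Fmr1*CRE replicate 1 or 3, with contrasts of -1.99 to -1.74. The 15 genes of motile cilia tested, which ependymal cells share across all ventricles, included 0 above and 0 below, with a median contrast of -0.11. How much choroid plexus was dissected with each region is not given in the sources used here and was not tested.

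Neuronal genes were also below both regions. *Crh*, corticotropin releasing hormone, was at 2.52, 3.38 and 4.36 CPM in midbrain, 5.17, 5.68 and 7.08 CPM in forebrain and 6.61, 9.36 and 10.4 CPM in hindbrain, a contrast of -1.07 (SE 0.12, adjusted p = 5.79e-05). *Penk*, proenkephalin, was at 49.6 to 116 CPM in midbrain, 108 to 262 CPM in forebrain and 86.0 to 109 CPM in hindbrain, so that libraries overlapped. *Lamp5*, of a class of inhibitory neurons, was at 37.7, 49.7 and 56.2 CPM in midbrain, 88.5, 98.2 and 138 CPM in forebrain and 110, 126 and 169 CPM in hindbrain, a contrast of -1.29 (SE 0.13, adjusted p = 1.68e-05). *Scn4b*, a sodium channel subunit of striatal and Purkinje neurons, was at 67.8 to 116 CPM in midbrain, 119 to 334 CPM in forebrain and 119 to 185 CPM in hindbrain. *Pcp4* and *Pcp4l1*, calmodulin-binding peptides of cortical, striatal and cerebellar neurons, had contrasts of -0.52 and -0.88 without overlap. With the length trend removed the call of *Pcp4* was lost (contrast -0.23) and that of *Pcp4l1* was kept (-0.76), and the call of *Penk* was lost (contrast -0.91).

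*Ighm*, the immunoglobulin mu constant region, was at 7.49 to 9.88 CPM in midbrain, 14.5 to 22.1 CPM in forebrain and 20.3 to 25.8 CPM in hindbrain, a contrast of -1.13 (SE 0.10, adjusted p = 1.03e-05). The 5 genes of red blood cells had a median contrast of -0.79 but none was below both, since each had a pairwise difference from forebrain that did not pass. Of 13 genes of vessel walls *Pecam1* and *Rgs5* were below both, with contrasts of -0.35 and -0.38. Of 25 oligodendrocyte genes and 12 microglia genes 0 were called, and of 20 astrocyte genes only *Slc6a11*, a GABA transporter, was called, above both by 0.79. Of 14 immediate early genes 0 were called, and of 15 genes of proliferation 0 were called.

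**Figure D3:**
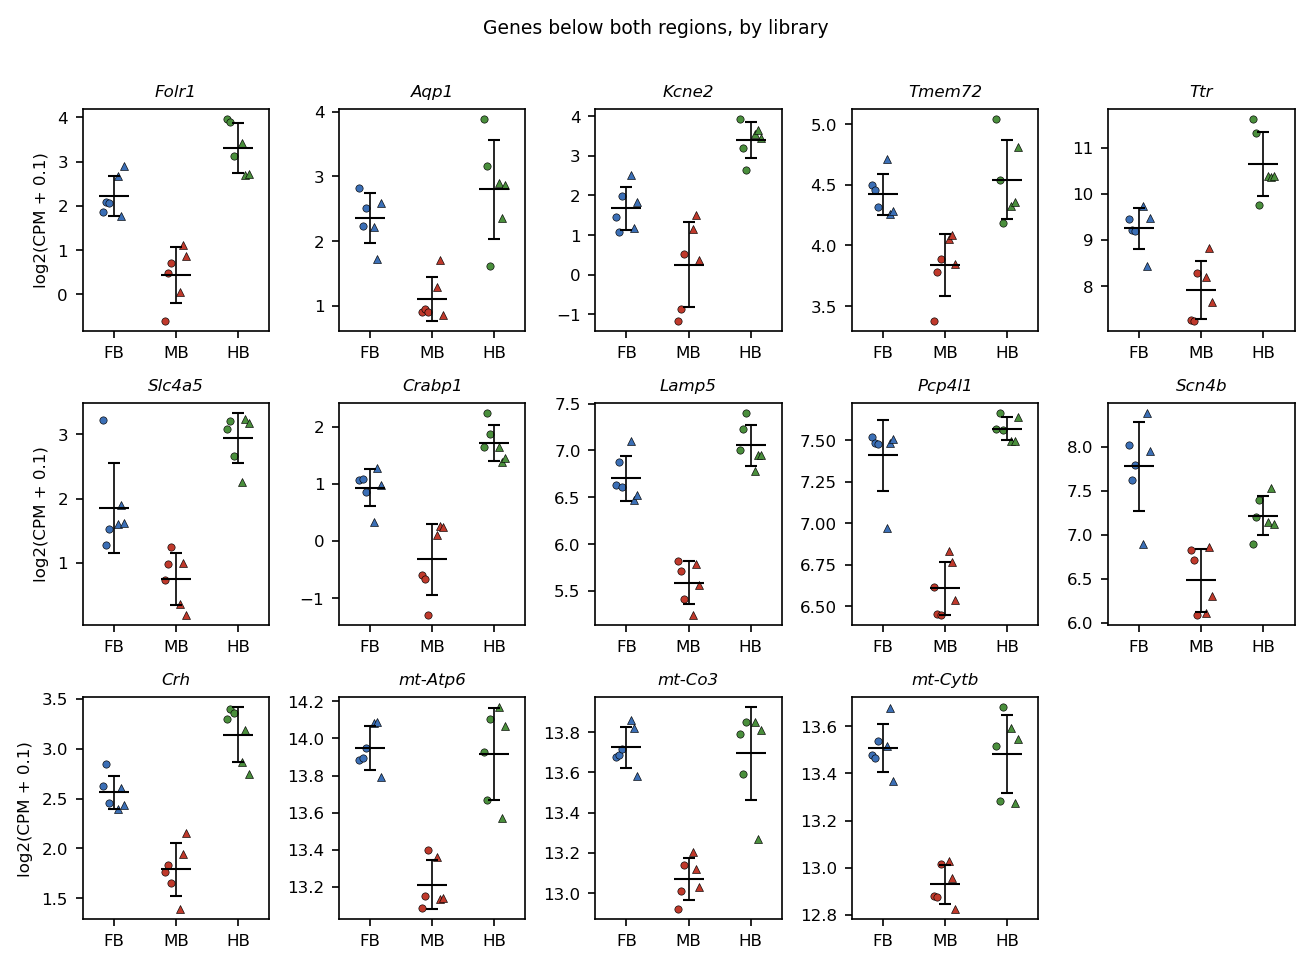
The level of 14 genes below both regions in each library, as log2(CPM + 0.1), with 6 choroid plexus genes first and 3 mitochondrially encoded genes last. Circles are wild-type and triangles *Fmr1*CRE libraries, and the black marks are the mean and SD of 6 libraries. The choroid plexus genes differ more from hindbrain than from forebrain, while the mitochondrial genes differ about equally from both regions.

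The largest group below both regions by number was of mitochondrial and ribosomal genes, each with a small difference. These families were chosen after values were seen. Of 21 mitochondrially encoded genes tested, 14 lay below both, with a median contrast of -0.48, and of 84 cytosolic ribosomal protein genes 47 did, with a median of -0.37. Of nuclear genes of complex I, cytochrome c oxidase, and ATP synthase with complex III, 9 of 48, 5 of 26 and 4 of 29 lay below, and of 39 proteasome genes 0 did. These families were gathered by symbol and hold some pseudogenes. The processed pseudogenes *Rps12l1*, *Ndufb4c* and *Cox6c2* are among the members below both, and are counted again among the pseudogenes further on. Mitochondrially encoded genes took 7.93% to 9.64% of all counts in midbrain libraries, 11.2% to 13.8% in forebrain and 10.8% to 14.04% in hindbrain, without overlap. *mt-Atp6*, a subunit of ATP synthase, was at 8684, 9056 and 10815 CPM in midbrain, 14191, 15541 and 17412 CPM in forebrain and 12168, 16369 and 18413 CPM in hindbrain. Its contrast was -0.73 (SE 0.08, adjusted p = 4.36e-05), and midbrain was lowest in 6 of 6 mice.

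**Figure D4:**
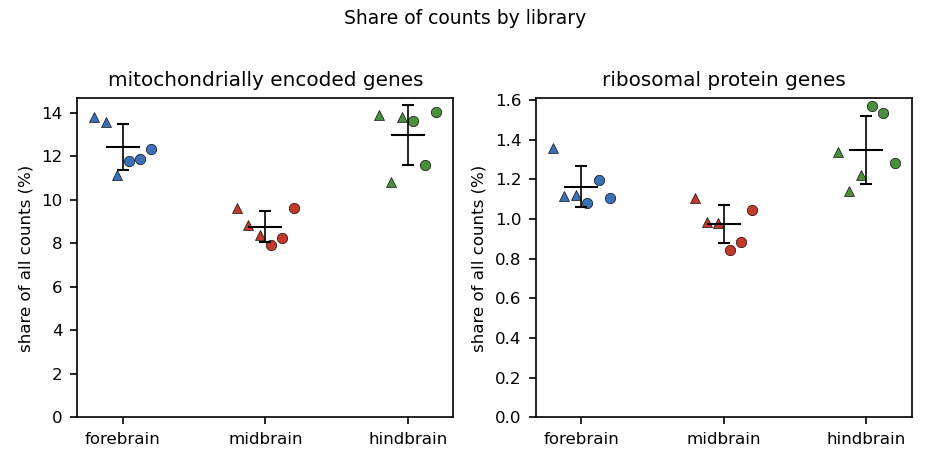
Share of all counts, in percent, of mitochondrially encoded genes (left) and ribosomal protein genes (right) in each of 18 libraries. Circles are wild-type and triangles *Fmr1*CRE, and black marks are the mean and SD of 6 libraries. The mitochondrial share of midbrain, at most 9.64%, lies below that of both other regions.

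These short and abundant transcripts moved together with a trend over transcript length. Genes below both regions had a median longest transcript of 1392.5 bases, those above both 4566 bases and all genes tested 3089.5 bases. In the shortest of 5 equal classes of genes 0.518% lay above both regions and 5.47% below, and in the longest class 5.83% and 0.311%. When the trend of counts on length was taken out of each library, 419 genes lay above both, of which 355 were also called before, and 313 below, of which 181 were. This setting was chosen after the data were seen. Under it 15 of 84 ribosomal protein genes, 5 of 21 mitochondrially encoded genes and 3 of 26 glutamate neuron genes were called, and of the nuclear genes of complex I, cytochrome c oxidase, and ATP synthase with complex III, 1 of 48, 1 of 26 and 3 of 29 lay below. The dopamine list again had 10 members above, with *Ddc* in and *Slc18a2* out, while the same 8 midbrain and tectal factors lay above and the same 6 choroid plexus genes below. *mt-Atp6* then had a contrast of -0.45, and *Slc6a3* of 6.57. What sets the length trend was not tested.

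**Figure D5:**
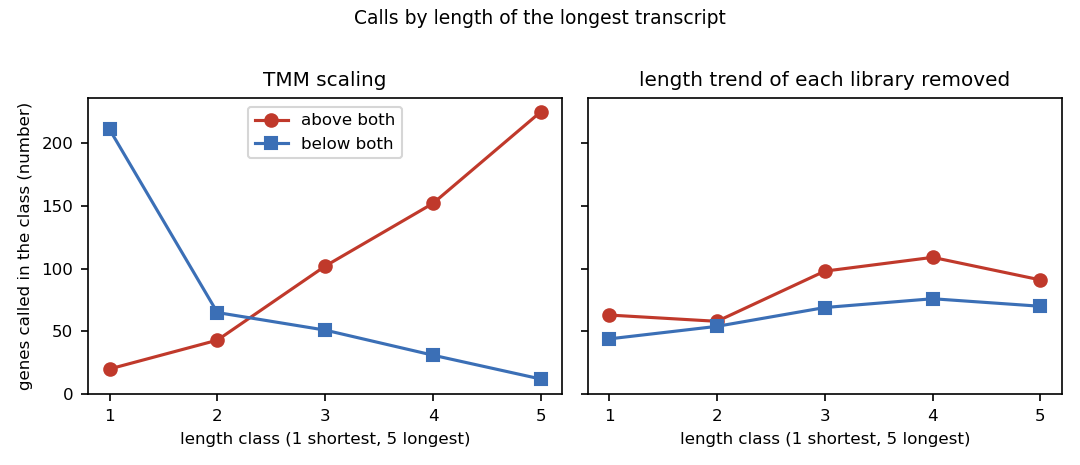
Number of genes above both (red) and below both (blue) regions in 5 classes of longest transcript length, from class 1 (up to 1662 bases) to class 5 (4972 bases and more). With TMM scaling (left) the classes go from 20 to 225 genes above and from 211 to 12 below. With each library's length trend removed (right) they go from 63 to 91 above and from 44 to 70 below.

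Pseudogenes were more frequent below both regions, with 36 there, 2 above and 845 tested. With the length trend removed only 4 of the 36 lay below both (*Abhd11os*, *Gm10012*, *Gm29216* and *Ube2d-ps*). Of these 36, 25 had at least 90% of their 31-base stretches in other annotated genes, mostly ribosomal protein or mitochondrial genes, so their counts cannot be separated from those of their parents. *Gm29216* (chr1:24615706-24616197, minus strand), a nuclear copy of mitochondrial DNA, had a contrast of -0.68, or -0.38 with the length trend removed, and shared 97.2% of its stretches with *mt-Co1*. *Gm28438*, on the same chromosome, had a contrast of -0.62 and shared 99% with *mt-Nd3*, but its call was lost with the length trend removed (contrast -0.29). The 36 nuclear protein-coding genes checked, those with the largest margins or the highest levels, shared at most 8.12% of their stretches with others. Of mitochondrially encoded genes checked, *mt-Atp6*, *mt-Co2*, *mt-Co3* and *mt-Nd3* shared 98.1% to 100% with other annotated genes. *mt-Atp8* and *mt-Cytb* shared 7.47% and 6.55%. Where nearly all stretches are shared, the counts of a mitochondrial gene cannot be separated from those of its copies either.

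Among genes with high counts above both regions was *App*, the amyloid precursor protein, at 1173 to 1726 CPM in midbrain and up to 1268 CPM in forebrain, a contrast of 0.54 (SE 0.11, adjusted p = 0.00249). Its call was lost with the length trend removed (contrast 0.28). This gene was chosen after its values were seen.

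Whether the midbrain contrast itself differed between *Fmr1*CRE and wild-type mice was tested as an interaction. With edgeR 0 of 19313 genes passed (0%), with 926 genes at an unadjusted p under 0.05 (4.79%) and a smallest adjusted p of 0.311. DESeq2 called 37. Among the 912 genes above or below both regions, 46 had an unadjusted p under 0.05 and the smallest adjusted p was 0.935. Of the 45 genes with the largest margins or the highest levels, *Pax7* and *Crabp1* had an unadjusted p under 0.05. For each mouse, midbrain minus the mean of the other regions was also taken from log2 CPM with a prior count of 2. This measure is not the contrast of the model and is drawn toward 0 at low counts. In *Pax7* it was 3.70 ± 1.33 in *Fmr1*CRE and 5.67 ± 0.45 in wild-type mice (SD, n = 3 each). In *Crabp1*, a retinoic acid binding protein, it was -0.98 ± 0.09 and -2.36 ± 0.38. The model's difference, *Fmr1*CRE minus wild-type, was -3.80 for *Pax7* and 1.47 for *Crabp1*. Neither passed the adjusted test.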

How the data were processed

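The authors processed single-end reads of 50 bases with the bcbio_nextgen pipeline and quantified transcripts with Salmon. The submitters' processing notes name Salmon 0.14.0, DESeq2 1.30.1 and mm10. The deposited counts hold whole numbers per gene, rounded from Salmon's transcript estimates without normalization, for 53468 genes. GENCODE M21 (GRCm38) gave symbols for 53363, and the 105 others held 0.0438% of counts. Deposited variance-stabilized and transcript values were not used. Which libraries shared a sequencing pool is not given in the sources used here.

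Counts were fitted with edgeR 4.0.16 in R 4.3.3 (TMM, default filter by region, region plus mouse, quasi-likelihood test, Benjamini-Hochberg adjustment over 19313 genes). The labels give each mouse one number across regions, which is the source of the block. Same-mouse deviations correlated at -0.18 to 0.12. The replicate 3 forebrain libraries correlated with midbrain and hindbrain of their own mouse at -0.18 and -0.04 (wild-type) and -0.07 and -0.08 (*Fmr1*CRE). Set against the other replicate 3 mouse, the values were 0.12 and 0.02 for the wild-type and -0.07 and 0.14 for the *Fmr1*CRE forebrain library. Why these values differ was not tested. The margin and genotype tests used the same libraries. Tested on simulated data, 88.8% of genes raised by 1 and 68.3% of genes lowered by 1 were called, and 0 of 60 genes lying between regions. The changed genes had a mean above 1 CPM, and no length trend was simulated. Most called genes had margins under 1, and such smaller shifts were not simulated. Genes between regions were set well apart from both, so the rule of equal sign could hardly have called them.

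Named genes were the 15 with the largest margin in each direction without overlap of libraries and a mean of at least 1 CPM, the 10 with the highest level at a margin of at least 1 above or 0.5 below, and members of gene lists. Some genes named by these rules are not reported here. The members and lists were chosen with earlier results of these data known. Families by symbol were chosen after values were seen. Motifs were counted in RefSeq promoters of GRCm38.p6, and figures were drawn with matplotlib 3.10.9.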

Additional observations from a re-analysis of the deposited data

Results flagged for a closer look

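In 81 named or called genes and 3 library measures (total counts and the mitochondrial and ribosomal protein gene shares), each region's 6 libraries were checked for a single library far from the others, with Dixon's test, on log2 CPM for genes, and 27 of 252 groups were marked (10.7%). Chance marks about 1 in 20. Values are in CPM after TMM scaling, and the spread of the other 5 libraries follows each.

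In *Fmr1*CRE forebrain replicate 1, 8 genes stood apart. Measures of the whole library, not among those checked, also lay outside the range of the other forebrain libraries. Its TMM factor was 1.04 (others 0.917 to 0.954). The mean log2 CPM of its longest class of genes was 5.29 (others 5.48 to 5.56). Lower there were *Cartpt* at 5.88 (others 10.5 to 13.3), *Disp2* at 119 (192 to 248), *Gad1* at 139.98 (248 to 265), *Pcp4l1* at 126 (178 to 183), *Tox2* at 7.87 (19.3 to 31.5) and *Tfap2d* at 0 (0.509 to 1.01). *Fev* and *Pou4f2*, each at 0.0397 with the others at 0, rest on 1 read or so and are given as values only. In *Fmr1*CRE forebrain replicate 3, *Slc6a3* stood at 8.32 (0.0397 to 0.44), *En1* at 0.212 (0 to 0.044) and *Foxa2* at 0.0849 (others at 0). The values of *En1* and *Foxa2* rest on few reads and are given as values only.

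In *Fmr1*CRE midbrain replicate 2, genes of monoamine neurons and 1 tectal factor were low: *Slc18a2* at 17.7 (31.3 to 42.1), *Slc6a4* at 6.31 (14.6 to 18.3), *Fev* at 0.189 (1.20 to 2.89) and *Pou4f2* at 1.51 (2.28 to 2.90). In *Fmr1*CRE hindbrain replicate 2, *Pax7* was at 0.938 (0.0332 to 0.159), *Tcf7l2* at 7.43 (3.69 to 4.75), *Disp2* at 316 (172 to 211), *Slc6a11* at 335 (178 to 209) and *Spon1* at 80.9 (64.2 to 69.3), while *Gm28438* was low at 855 (1136 to 1258).

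The remaining values were *Cartpt* at 9.70 (5.63 to 6.87) and *Grik4* at 22.05 (17.3 to 18.8) in wild-type hindbrain replicate 2, *Gata3* at 2.53 (0 to 0.088) in wild-type forebrain replicate 2, *Slc4a5* at 9.29 (2.33 to 3.63) in wild-type forebrain replicate 1, *Dgkg* at 33.3 (21.1 to 24.3) in *Fmr1*CRE hindbrain replicate 1 and *Ighm* at 7.49 (8.96 to 9.88) in *Fmr1*CRE midbrain replicate 3. The cause of these values was not tested.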

How the results depend on the processing

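With mouse as a block, 542 genes lay above both regions, 370 below and 5427 passed the contrast alone. No replicate block gave 613, 453 and 5920, with 0 genotype differences, and changed no call among the 45 named genes. Total counts without TMM gave 819 above and 194 below. With no filter on low counts 163 lay below and 1 genotype difference was called. DESeq2 gave 724 above, 507 below and 6167 past the contrast, with 37 genotype differences. A margin of at least 1 left 50 above and 26 below. Wild-type mice alone gave 152 above, 85 below and 2463 past the contrast, and *Fmr1*CRE mice alone 7, 5 and 949, each with fewer mice. Without both mice of replicate 3, 155 lay below, and without their forebrain libraries 233. Leaving out each mouse in turn gave 275 to 542 above, 158 to 314 below, 3518 to 5230 past the contrast and 0 to 1 genotype difference. The lowest were without wild-type replicate 1 (275, 206 and 3518) and wild-type replicate 2 (325 and 158). Without *Fmr1*CRE replicate 1 there were 343 above and 242 below, and without *Fmr1*CRE replicate 3 there were 243 below and 1 genotype difference. The cause of these shifts was not tested.

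Of 836 values of named genes under alternatives, 756 kept their call, 80 lost it and 0 reversed. Genes that a setting could not test are not in these counts. With at least 10 counts required in every library, 545 genes lay above both and 383 below. Only 32 of the 45 named genes could be tested there, and all kept their call. *Slc6a3*, *Pax7*, *En1*, *Gata3*, *Chrna6*, *Foxa1*, *Sox14* and *Tfap2d* were among those not tested. Of the 80, 38 were with *Fmr1*CRE mice alone. The effect of depth on the calls was not tested, and levels under 1 CPM rest on few reads.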

Other observations

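Families of cell surface and guidance genes, chosen after values were seen, had members above both regions and 0 below. Over all genes tested, 2.81% lay above both and 1.92% below. Of 69 protocadherins, which mark neurons with combinations of adhesion proteins, 7 lay above both (*Pcdh18*, *Pcdh19*, *Pcdha3*, *Pcdhb3*, *Pcdhb9*, *Pcdhb14* and *Pcdhb18*), with a median contrast of 0.56, and of 29 semaphorins and plexins, which steer axons, 6 did (*Sema6a*, *Sema5a*, *Plxna4*, *Plxna1*, *Sema3f* and *Sema3e*), with a median of 0.31. With the length trend of each library removed, 3 protocadherins and 5 semaphorins and plexins lay above both. Of 22 subunits of the vacuolar proton pump, which acidifies vesicles, 3 lay above both (*Atp6v1a*, *Atp6v1b2* and *Atp6ap1*), also 3 with the length trend removed. Of 84 potassium channel genes 3 lay above both (*Kcnc4*, *Kcnk9* and *Kcna6*) and 1 below, *Kcne2*, which is also a gene of the choroid plexus, and with the length trend removed 2 lay above, without *Kcnk9* (contrast 0.20), and 1 below. Of 382 zinc finger genes of the Zfp series 4 lay above and 4 below, and with the length trend removed 1 and 10. Before removal of the trend, the potassium channel and Zfp counts were near or under the shares over all genes tested. They are not read as results about these families. Of 4 genes of the pineal gland and pituitary that were tested 0 were called.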
